A study of Mus musculus with 6 samples.

Results

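The nuclear genome encodes most subunits of the 4 respiratory chain complexes and of the ATP synthase. Their RNA was followed here in a sorted preparation of mouse alveolar epithelial type II (AT2) cells, which also held RNA of other cell types. Members were the rows of the deposited count table whose symbol starts with Nduf, Uqcr or Atp5, together with Sdha, Sdhb, Sdhc, Sdhd, Cyc1, Cycs and the Cox4 to Cox8 genes. Pseudogene symbols with -ps and assembly factor symbols with "af" were dropped (7 and 8 symbols). This left 87 of 52550 rows: 36 subunit genes of complex I, 4 of complex II, 9 of complex III, 12 of complex IV, 15 of complex V, the cytochrome c gene Cycs, 8 complex IV isoform genes typical of other tissues or conditions, and Atp5s and Atp5sl. The last pair carry ATP synthase symbols but act in assembly or coupling and are no structural subunits. Ndufa4 was counted with complex IV, where its protein sits.

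There were 3 control libraries and 3 libraries labelled Grp78KO, all from C57BL/6 mice. All carried Sftpc+/creERT2, a tamoxifen-dependent Cre at the surfactant protein C gene, which is active in AT2 cells, and Grp78f/f, floxed alleles of the gene for the endoplasmic reticulum chaperone Grp78 (Hspa5). The genotype label gives the controls as without tamoxifen and the other group as with it, so tamoxifen and allele loss cannot be told apart. The time label nevertheless counts 10 days from an injection of the drug for every sample, controls included. Cells were sorted with magnetic beads as CD45-negative and EPCAM-positive, ages are not labelled, and nothing says that the 3 samples of a group were separate animals, so p-values measure only the spread between these samples.

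Complexes I and II feed electrons from NADH and succinate to ubiquinone, complex III passes them to cytochrome c, and complex IV reduces oxygen. The proton gradient built by complexes I, III and IV drives complex V, the ATP synthase. Complexes I, III, IV and V also hold subunits encoded in mitochondrial DNA, while complex II and cytochrome c are entirely nuclear-encoded. In AT2 cells this machinery supplies ATP for surfactant synthesis and secretion.

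Libraries held 110770711 to 149520306 counts. Hspa5 stood at 1355, 1289 and 925 CPM (counts scaled to a common library size with TMM factors) in controls 1 to 3 and at 9262, 9180 and 3809 in the libraries labelled Grp78KO. It thus went against the label, although a count over the whole gene says nothing of the floxed exons. All 10 AT2 markers examined were lower in those libraries (median log2 fold -1.28; summed level 139500 to 163510 CPM in controls and 51915 to 68008 CPM in the others). All 10 fibroblast and smooth muscle markers were higher (summed level 228 to 582 and 1216 to 1345 CPM), and leukocyte markers summed to 108 CPM in library 3 labelled Grp78KO against 12.7 to 15.8 CPM elsewhere. Their part in the results below was not tested. RNA of airway cells was abundant too. The club cell gene Scgb1a1 had 48330, 46148 and 26136 CPM in controls, beside 54845, 47646 and 43706 CPM for the AT2 gene Sftpc. In libraries 1 to 3 labelled Grp78KO they had 27830, 30127 and 26914 CPM and 15506, 14460 and 18606 CPM. The values below are therefore not those of AT2 cells alone. In bulk RNA, fewer cells of a type and less RNA per cell cannot be told apart.

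By their median fold, these genes as a family were level between the groups. The counts in this paragraph come from the fit on group alone. With the replicate number in the fit, given below, members called higher outnumbered those called lower. Of 84 members with enough counts to test, 6 were called higher in the libraries labelled Grp78KO (Atp5g1, Uqcrq, Cycs, Atp5sl, Cox5a and Cyc1) and 5 lower (among them Cox4i2, Atp5d, Sdha and Ndufb3). A call is an adjusted p under 0.05 in edgeR's quasi-likelihood test, adjusted over all 18849 genes tested, of which 36.8% were called, 18% higher and 18.8% lower. Members were called in 13.1%, or 11 of 84. Their median log2 fold (libraries labelled Grp78KO over controls) was 0.03, with the middle 50% of members between -0.08 and 0.25, against a median of 0.02 and a middle range of -0.36 to 0.44 over all genes tested. Only 6 of the 84 had a log2 fold of 0.5 or more in either direction, against 7781 of 18849 genes. The groups did not overlap for 14 members, 8 higher and 6 lower, where 51.6% of all genes tested were separate (25% higher and 26.6% lower).

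**Figure D1:**
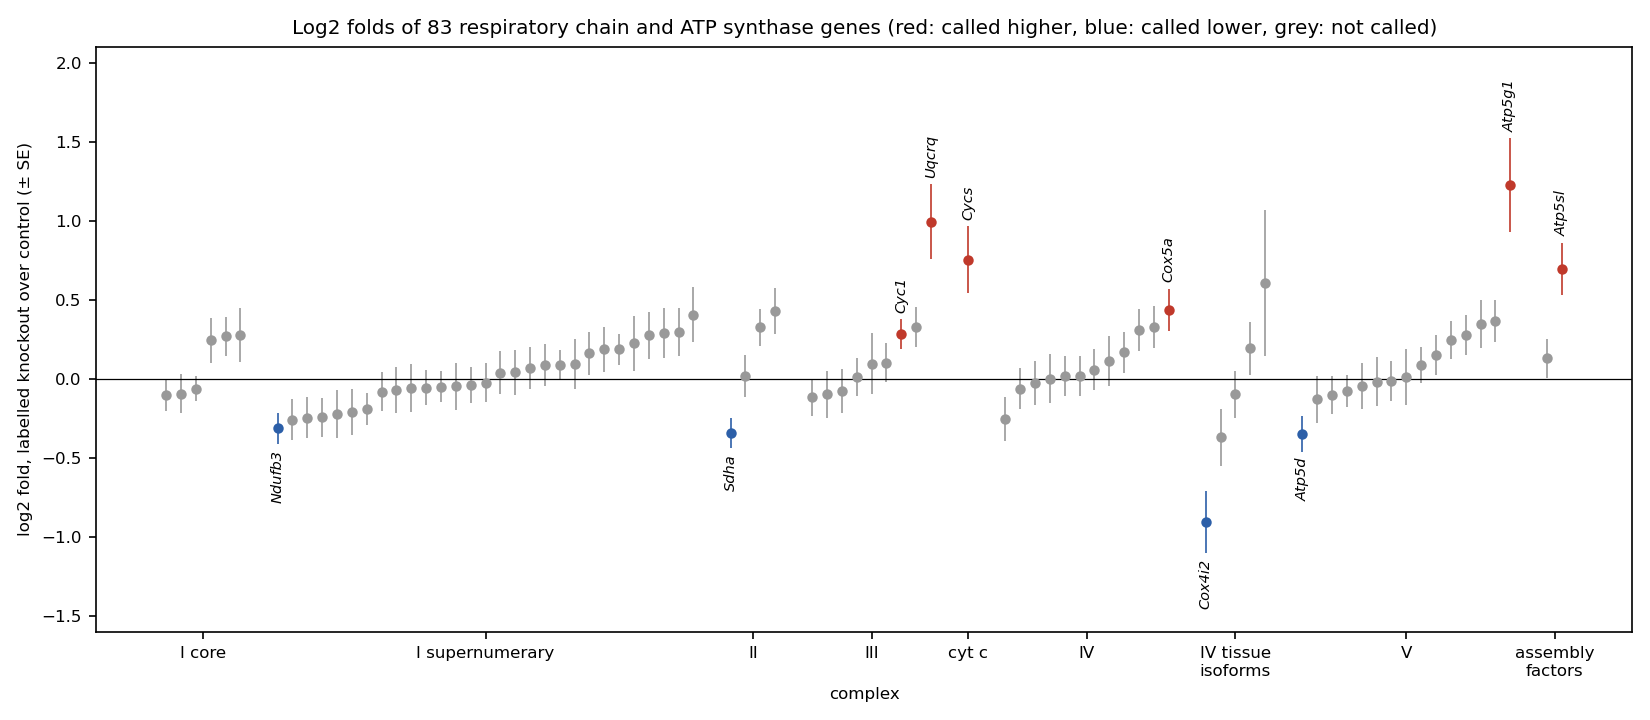
Log2 fold (libraries labelled Grp78KO over controls, vertical axis) of 83 of the 84 tested members, grouped by complex along the horizontal axis; points are fitted folds and bars are SE from 3 libraries a group. The 6 genes called higher are red, the 4 called lower are blue, and most of the 36 complex I genes lie near 0.

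The same genes were far from level between libraries of one group. Control 1 held the highest control value for 75 of the 77 tested structural subunit and Cycs genes, and control 3 the lowest for 76 of 77. Among all genes tested, control 1 was the highest control for 35.4% and control 3 the lowest for 40.2%. Library 1 labelled Grp78KO was the highest of its group for 71 of 77 and library 3 the lowest for 68 of 77. Relative to the mean of the controls, the median member lay 0.19 higher (log2) in control 1, 0.01 higher in control 2 and lower in control 3 (-0.24). In libraries 1, 2 and 3 labelled Grp78KO it lay at 0.13, 0.05 and -0.10. For 70 of the 84 members the log2 range among the 3 controls exceeded the log2 fold between the groups, which held for 45.8% of 18577 genes with counts in every control. That range was partly shared with the library of the same number in the other group, although the labels give no pairing. Deviations of same-numbered libraries correlated at 0.35, 0.2 and 0.329, beside 0.171 and 0.154 between numbers 1 and 2. Between number 3 and numbers 1 and 2 they ran from -0.35 to -0.211. These values mainly set number 3 apart. Deviations from a shared group mean also offset each other, so they cannot establish pairs. If same-numbered libraries are pairs, the range is not the error of a difference within pairs. Club cell markers followed the same order among controls (median deviation 0.27, 0.16 and -0.62 on the log2 scale, with Scgb1a1 at 48330, 46148 and 26136 CPM), as did ciliated cell markers (0.15, 0.07 and -0.22). AT2 markers (0.10, -0.04 and -0.08) and type I alveolar (AT1) markers (0.10, -0.03 and -0.09) also had that order among controls. Fibroblast and smooth muscle markers (-0.19, -0.32 and 0.37) and endothelial markers (0.02, 0.05 and -0.06) did not. In the libraries labelled Grp78KO the medians were -0.39, -0.41 and -0.54 for club and 0.31, 0.21 and 0.45 for ciliated markers. They were -1.43, -1.43 and -1.03 for AT2 and -0.08, -0.07 and -0.31 for AT1 markers. The AT1 median hides a split list. Ager, Rtkn2 and Aqp5 had log2 folds of -1.31, -1.09 and -0.62, and Pdpn, Hopx and Cav1 of 1.06, 0.41 and 0.33. Summed AT1 levels were 1670 to 1954 CPM in controls and 958 to 1021 CPM in the others. The part of these cell types in the pattern was not tested.

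**Figure D2:**
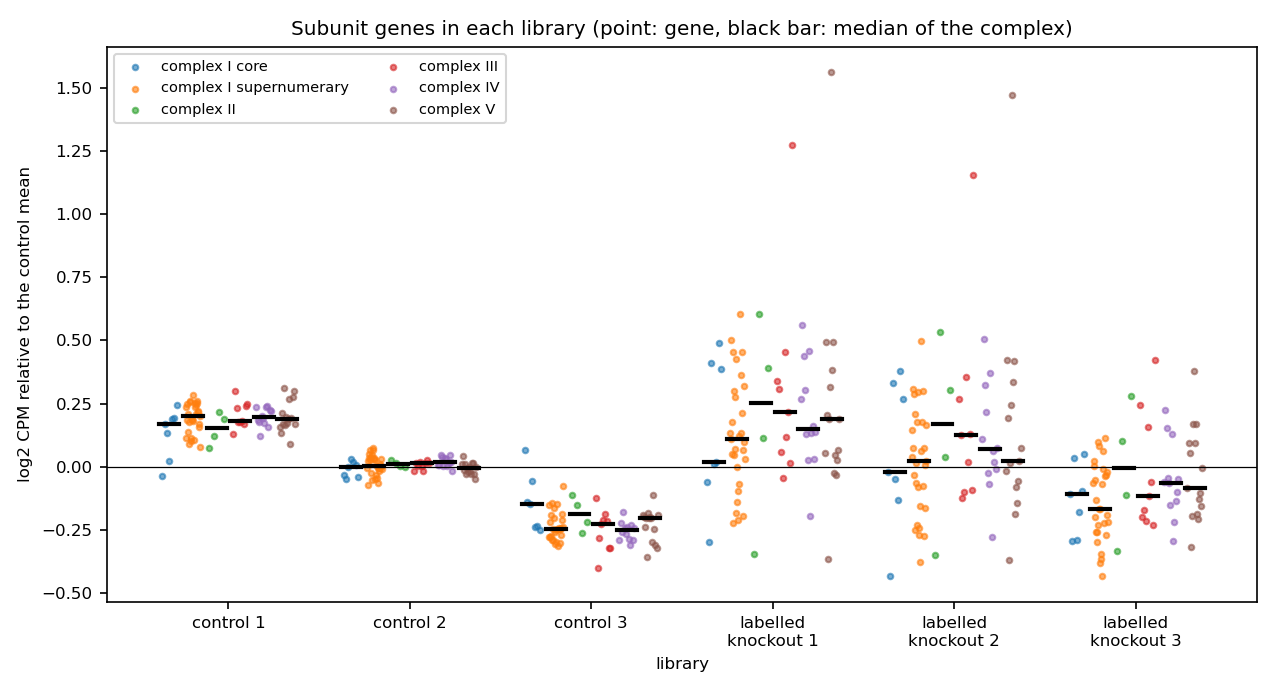
Log2 CPM of each structural subunit gene relative to its control mean (vertical axis) in each of the 6 libraries (horizontal axis), by complex, with complex I split in core and supernumerary subunits; points are genes and black bars medians. Every median lies above 0 in control 1 and below 0 in control 3, and those of complex I in library 3 labelled Grp78KO are -0.11 and -0.165.

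Calls depended on whether the replicate number entered the fit. With it as a block, 25 members were higher (29.8%) and 7 lower (8.33%), against 21.9% and 22.8% of all genes tested. In both directions 38.1% of members were called, against 44.6% of all genes. The called members thus leaned towards higher levels in that fit, while the median log2 fold of members was 0.04. Without both libraries numbered 3, 26 were higher and 11 lower (44%), against 56% of all genes, 28.3% higher and 27.7% lower. Cox4i2 was the only member called without control 2 (19.1% of all genes called, 8.67% higher and 10.4% lower). The same held without library 1 labelled Grp78KO (20.6%; 10.1% higher, 10.4% lower) and without library 2 (19.6%; 9.82% higher, 9.73% lower). At an unadjusted p under 0.05, these 3 edgeR fits held 6, 5 and 6 members with higher levels. Without control 1 there were 5 higher and 1 lower (27% of all genes called, 11.8% higher and 15.2% lower). Without control 3 there was 1 higher and 10 lower (30.3%; 14.1% higher, 16.2% lower), and without library 3 labelled Grp78KO 16 higher and 4 lower (44.4%; 22% higher, 22.4% lower).

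Scaling, filtering and tool also moved the counts. Scaling by library size alone gave 37 higher and 0 lower in edgeR (1 lower at an unadjusted p under 0.05), against 40.1% of all genes, 33% higher and 7.13% lower; under it the median over all genes rose to 0.27 and that over members to 0.29. Upper-quartile factors gave 12 higher and 2 lower (36.7% of all genes; 21.7% higher, 15% lower), and RLE factors 7 and 5 (36.4%; 18.7% higher, 17.8% lower). DESeq2 gave 11 and 5 (41.8%; 21.4% higher, 20.4% lower), and limma-voom 6 and 5 (36.1%; 17.3% higher, 18.8% lower). With no filter on low counts 5 and 2 of 86 members were called (21.7%; 10.5% higher, 11.2% lower), and with a filter of 5 CPM 12 and 4 of 81 (46.6%; 23.3% in each direction). Ndufb3 and Atp5d lost their calls under library-size and upper-quartile scaling and without the filter, and Atp5g1 and Cyc1 without the filter (edgeR's adjusted p = 0.0526 and 0.0869).

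Few complex I genes were called. Of 36 tested, 2 were lower, Ndufb3 among them, and none was higher in edgeR, DESeq2 or limma-voom (1, 2 and 0 at an unadjusted p under 0.05). Of all genes tested, these fits called 18.8%, 20.4% and 18.8% lower and 18%, 21.4% and 17.3% higher. The median log2 fold was -0.06 for the 7 core subunits, which carry the flavin and iron-sulfur clusters, and -0.02 for the 29 supernumerary subunits, which stabilise and assemble them. Ndufb3, a supernumerary subunit of the membrane arm (chromosome 1, 58586384 to 58595964, plus strand), had 54.3, 51.4 and 45.5 CPM in controls and 43.6, 38.8 and 39.2 CPM in the others (log2 fold -0.31, SE 0.0976, edgeR's adjusted p = 0.0391). All 3 of the latter lay below every control. The call ended without control 1 or 2 or any 1 of libraries 1 to 3 labelled Grp78KO (edgeR's adjusted p = 0.0554 to 0.143).

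With the block, 10 complex I genes were higher and 4 lower, of 36, where 21.9% and 22.8% of all genes tested were called in that fit. The core subunit genes Ndufs3, Ndufv1 and Ndufv2 had log2 folds of 0.27, 0.28 and 0.24 without the block (edgeR's adjusted p = 0.122, 0.236 and 0.221) and passed with it (edgeR's adjusted p = 0.0187, 0.0284 and 0.0259). Ndufv1 and Ndufv2 encode the NADH-binding flavoprotein and its iron-sulfur partner. Ndufv1 had 102, 89.5 and 75.6 CPM in controls and 125, 116 and 83.3 CPM in the libraries labelled Grp78KO, so each library stood above the control of its number while the groups overlapped. Ndufb6 had the largest log2 fold of the complex, 0.41 (SE 0.172, edgeR's adjusted p = 0.10, or 0.00879 with the block). Its exons share 39% of their bases with Smim27 on the opposite strand, the largest such overlap of the family. Ndufb11 went the other way, with 145 ± 21.5 CPM in controls and 121 ± 10.1 CPM in the others (SD, n = 3 each; -0.26 on the log2 scale, edgeR's adjusted p = 0.154, or 0.0336 with the block). Ndufa3 and Ndufc2 had log2 folds of -0.24 and -0.25 and passed in neither fit. On CPM per kilobase of transcript, the most abundant complex I genes were Ndufc2 and Ndufa7, at 197 and 182 in controls. The core subunit gene Ndufs7 stood at 83.0. The lowest of the complex was Ndufs4, at 18.7.

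Complex II, the 4-gene succinate dehydrogenase, split by subunit. Sdha, the flavoprotein that oxidises succinate, fell, while the iron-sulfur subunit gene Sdhb and the membrane anchor gene Sdhd had positive folds that missed the threshold. Sdha (chromosome 13, 74322254 to 74350280, minus strand) had 241, 233 and 212 CPM in controls and 180, 180 and 182 CPM in the libraries labelled Grp78KO. All 3 of the latter lay below every control, and the fall was 0.34 on the log2 scale (SE 0.0945, edgeR's adjusted p = 0.0264). Sdhb had 67.3, 62.6 and 55.7 CPM in controls and 94.0, 89.5 and 66.4 CPM in the others, overlapping only through library 3 labelled Grp78KO (log2 fold 0.43, SE 0.144, edgeR's adjusted p = 0.0503, or 0.00935 with the block). Sdhd had 86.1, 75.6 and 64.8 CPM in controls and 98.9, 93.2 and 91.7 CPM in the others, with separate groups (log2 fold 0.33, SE 0.115, edgeR's adjusted p = 0.059, or 0.0205 with the block). Sdhc, the other anchor, had a log2 fold of 0.02 (SE 0.133, edgeR's adjusted p = 0.931). The Sdha call ended without control 1 or 2 or library 1 or 2 labelled Grp78KO (edgeR's adjusted p = 0.073 to 0.101) and with library-size scaling (edgeR's adjusted p = 0.464). DESeq2 called Sdhb and Sdhd higher (adjusted p = 0.0156 and 0.0271).

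Promoters of 2 complex II genes, chosen after their values were seen, are shown because both hold a match for NRF1, a transcription factor known for driving nuclear respiratory genes. The sequences are RefSeq's on GRCm38.p6, the assembly called mm10, and run 5′ to 3′ on the gene's strand from 250 bases before to 50 bases after the start. Capitals mark matches on either strand to the NRF1 consensus and to CCGGAAG, the core of the ETS family, which includes GABPA.
Sdha, chr13:74350191-74350490, minus strand: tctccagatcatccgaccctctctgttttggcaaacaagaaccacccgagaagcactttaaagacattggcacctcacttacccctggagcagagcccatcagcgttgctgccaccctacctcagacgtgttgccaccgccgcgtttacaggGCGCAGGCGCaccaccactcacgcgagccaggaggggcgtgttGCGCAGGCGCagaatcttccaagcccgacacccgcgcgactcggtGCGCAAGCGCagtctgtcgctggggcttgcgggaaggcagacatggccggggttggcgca
Sdhd, chr9:50603800-50604099, minus strand: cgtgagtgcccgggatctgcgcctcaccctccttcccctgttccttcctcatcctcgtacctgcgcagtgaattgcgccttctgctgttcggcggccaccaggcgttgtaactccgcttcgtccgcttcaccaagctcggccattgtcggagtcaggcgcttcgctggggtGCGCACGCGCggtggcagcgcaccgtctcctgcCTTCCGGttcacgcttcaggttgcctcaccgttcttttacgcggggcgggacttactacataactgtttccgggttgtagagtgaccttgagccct
Sdha had 3 NRF1 matches, and Sdhd had 1 NRF1 match and 1 ETS match. The Sdhb promoter held an ETS match and no NRF1 match.

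Complex III had the largest changed subunit gene outside complex V. Uqcrq, a small subunit of the membrane part near the quinone-binding site (chromosome 11, 53427922 to 53430831, minus strand), had 94.7, 80.4 and 63.8 CPM in controls and 192, 177 and 107 CPM in the libraries labelled Grp78KO. All 3 lay above every control, and library 3 was the nearest to them. The rise was 1.99-fold, a log2 difference of 0.995 (SE 0.236, edgeR's adjusted p = 0.0154). Cyc1, the haem-bearing cytochrome c1, rose from 89.3, 80.6 and 74.9 CPM to 103, 98.3 and 96.6 CPM, with separate groups (log2 fold 0.28, SE 0.0932, edgeR's adjusted p = 0.0466). Uqcrc1, a core subunit, had a log2 fold of 0.33 (SE 0.128, edgeR's adjusted p = 0.0793, or 0.0091 with the block). The other 6 genes, among them the Rieske iron-sulfur subunit gene Uqcrfs1, had log2 folds of -0.12 to 0.10 and were not called in either fit. Small partner subunits did not pass, such as Uqcrb, at -0.12 (edgeR's adjusted p = 0.458), and Uqcr11, at -0.07 (edgeR's adjusted p = 0.698), whose groups overlapped. The Uqcrq call ended without control 2 or 3 or library 1 or 2 labelled Grp78KO (edgeR's adjusted p = 0.0522 to 0.0599), and that of Cyc1 without the same libraries (edgeR's adjusted p = 0.107 to 0.157).

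Cycs, the cytochrome c that carries electrons from complex III to IV and triggers caspases when released, rose 1.69-fold. It had 43.6, 42.4 and 33.5 CPM in controls and 79.4, 76.3 and 45.8 CPM in the libraries labelled Grp78KO (log2 fold 0.75, SE 0.212, edgeR's adjusted p = 0.028). The groups did not overlap, but library 3 labelled Grp78KO exceeded control 1 only narrowly. The call ended without any 1 of controls 1 to 3 or library 1 or 2 labelled Grp78KO (edgeR's adjusted p = 0.066 to 0.0962). The level of Cycs is uncertain because an annotated copy, Gm10053, is 99.9% identical to it over 946 bases. Gm10053 was counted at 46.9, 42.0 and 29.0 CPM in controls and 79.7, 76.7 and 47.8 CPM in the others (log2 fold 0.79, edgeR's adjusted p = 0.0352). In each library the copy stood close to Cycs itself, so reads from the pair cannot be assigned to either gene from these counts.

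**Figure D3:**
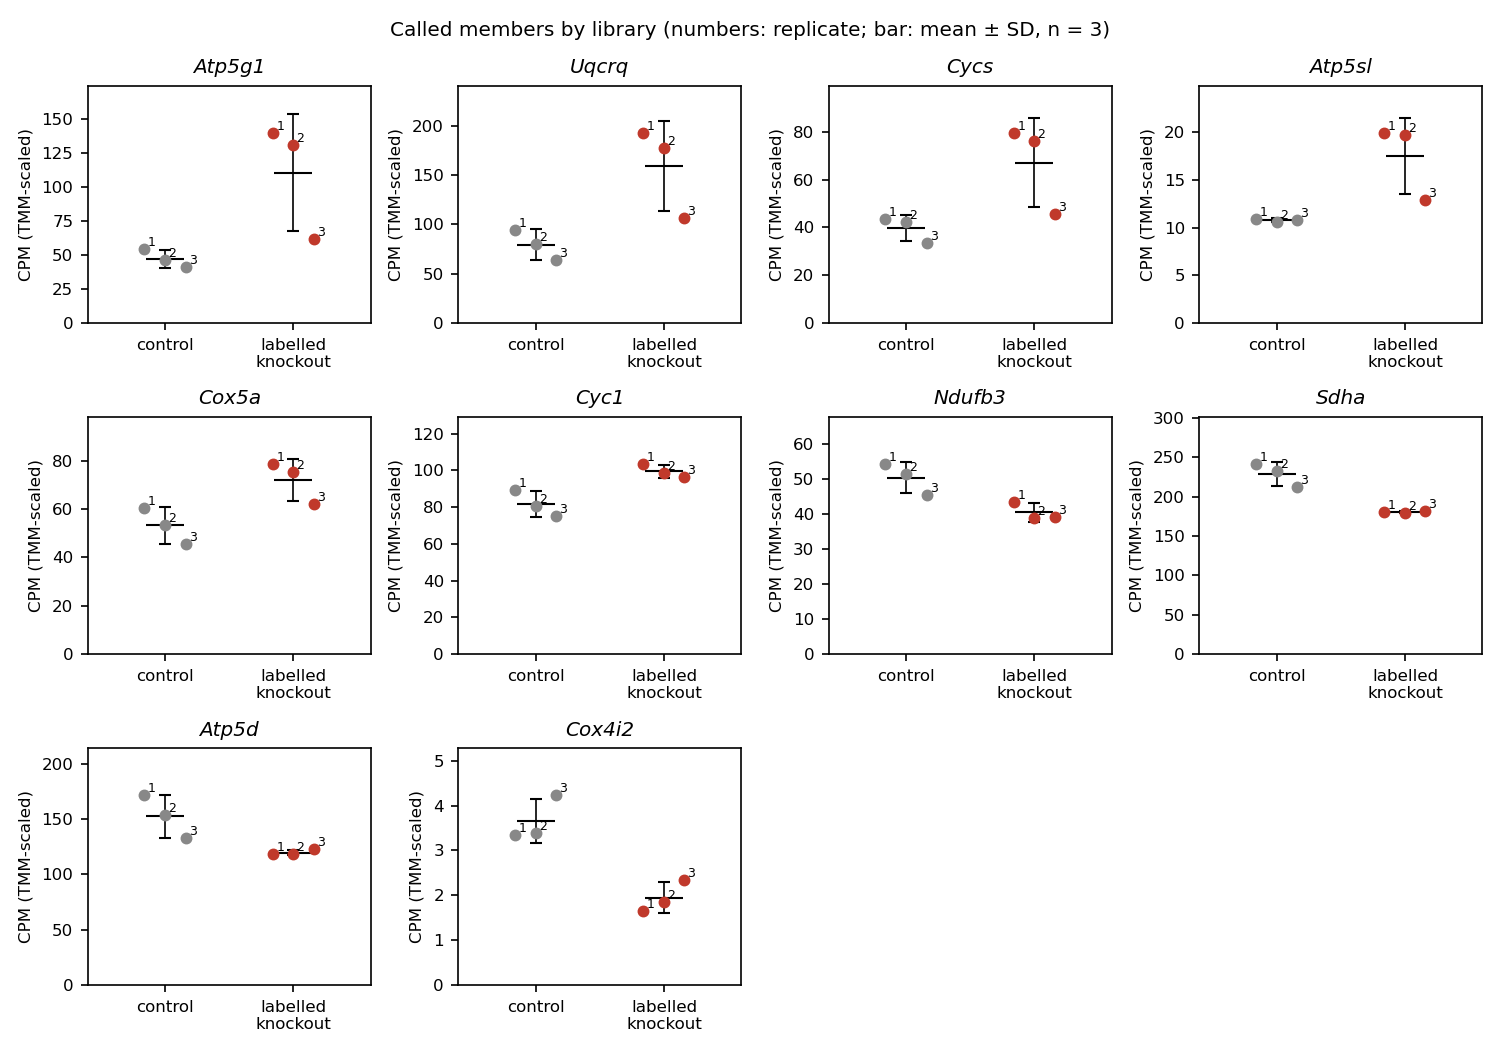
TMM-scaled CPM (vertical axis, from 0) of 10 of the 11 called members in each control and each library labelled Grp78KO (horizontal axis); points are libraries with their replicate number, and bars are mean ± SD (n = 3). The rises of Atp5g1, Uqcrq and Cycs are smallest in library 3, while Sdha stands at 180 to 182 CPM in all 3 libraries labelled Grp78KO.

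Complex IV subunits in general use had a median log2 fold of 0.04. Of 12 genes, 1 was higher and none lower in edgeR, DESeq2 or limma-voom (none lower at an unadjusted p under 0.05). Of all genes tested, these fits called 18%, 21.4% and 17.3% higher and 18.8%, 20.4% and 18.8% lower. With the block 3 of the 12 were higher, against 21.9% of all genes. Cox5a, a matrix-side subunit (chromosome 9, 57521274 to 57532426, plus strand), rose from 60.6, 53.5 and 45.6 CPM to 78.4, 75.5 and 62.2 CPM, each of the latter above every control (log2 fold 0.44, SE 0.134, edgeR's adjusted p = 0.0375). Its call ended without control 2 or 3 or library 1 or 2 labelled Grp78KO (edgeR's adjusted p = 0.102 to 0.121). Exons of Cox5a overlap Gm26631, a long noncoding RNA gene on the opposite strand, over 12.8% of their length. Counts without strand do not separate them. Cox5b and Cox7a2 had log2 folds of 0.31 and 0.33 (edgeR's adjusted p = 0.10 and 0.0908) and passed with the block (edgeR's adjusted p = 0.0116 and 0.00775). Cox7a2l, which helps join complexes III and IV, had a log2 fold of -0.26 (edgeR's adjusted p = 0.183). Cox4i1, Cox6a1, Cox6b1, Cox8a and Ndufa4 had folds of 0.11, 0.17, 0.02, -0.02 and 0.06 on the log2 scale. Cox4i1 was the most abundant member of the whole family per kilobase of transcript, at 421 CPM in controls and 455 CPM in the libraries labelled Grp78KO.

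Among complex IV isoform genes best known from other tissues or conditions, Cox4i2 fell. Cox4i2 encodes the alternative form of subunit 4 that is known from lung and low oxygen (chromosome 2, 152754173 to 152765037, plus strand). It had 3.35, 3.38 and 4.23 CPM in controls and 1.65, 1.85 and 2.34 CPM in the libraries labelled Grp78KO, with every one of the latter below every control. It fell by 0.91 on the log2 scale (SE 0.195, edgeR's adjusted p = 0.0107), the lowest adjusted p of all members. The call held without each library in turn (edgeR's adjusted p = 0.00348 to 0.0482) and with the block (edgeR's adjusted p = 0.00623), and ended with library-size scaling (edgeR's adjusted p = 0.0605). Per kilobase of transcript, Cox4i2 made up 1.23% ± 0.388 of the Cox4i1 and Cox4i2 sum in controls and 0.599% ± 0.176 in the others (SD, n = 3 per group). Fibroblast and smooth muscle markers summed to 230, 228 and 582 CPM in controls 1 to 3, of which control 3 had the highest Cox4i2. They summed to 1216, 1310 and 1345 CPM in the libraries labelled Grp78KO, where Cox4i2 was lower, and their part in its level was not tested.

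Cox6a2, the heart and skeletal muscle form of subunit 6a, was at a substantial level: 57.7, 48.0 and 47.1 CPM in controls and 66.1, 64.9 and 43.6 CPM in the libraries labelled Grp78KO. It made up 19.5% ± 1.15 of the Cox6a1 and Cox6a2 sum per kilobase in controls and 19.6% ± 1.80 in the others (SD, n = 3 per group), and its log2 fold was 0.19 (SE 0.17, edgeR's adjusted p = 0.403). The 5 heart muscle markers with enough counts to test, of 6 listed, summed to 1.61 to 3.76 CPM per library. No skeletal muscle list was examined. The muscle genes Des, Acta2 and Tagln reached 11.6, 20.8 and 15.3 CPM, each in a library labelled Grp78KO. The part of muscle cells in the Cox6a2 level was not tested. Its exons overlap Itgad, on the other strand, over 10.3% of their length. Cox7a1, another muscle form, was at 1.93 to 2.18 CPM in controls and 1.48 to 1.80 CPM in the others, separate groups that did not pass (log2 fold -0.37, edgeR's adjusted p = 0.139). Cox6b2, the testis form, was at 5.46 to 7.34 CPM over all libraries (log2 fold -0.10, edgeR's adjusted p = 0.632). Ndufa4l2, known as a hypoxia-induced relative of Ndufa4, was at 0.132 to 0.471 CPM (log2 fold 0.61, SE 0.46, edgeR's adjusted p = 0.332). Cox8b, Cox7b2 and Cox8c had too few counts to test, with at most 12, 4 and 0 counts in a library.

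In complex V the clearest change was in 1 of the 3 genes for the same rotor protein. Atp5g1, Atp5g2 and Atp5g3 each encode subunit c, which forms the proton-driven ring, and they differ mainly in their mitochondrial import sequences. Atp5g1 (chromosome 11, 96068852 to 96075670, minus strand) had 54.1, 46.5 and 41.1 CPM in controls and 139, 131 and 61.5 CPM in the libraries labelled Grp78KO. All 3 lay above every control, with library 3 again the lowest. The rise was 2.34-fold, the largest of the family (log2 fold 1.23, SE 0.295, edgeR's adjusted p = 0.0178). Atp5g2 and Atp5g3 had log2 folds of 0.28 and 0.37 (edgeR's adjusted p = 0.124 and 0.0674, or 0.0176 and 0.00834 with the block). Per kilobase, Atp5g1 supplied 12.7% ± 0.123 of the 3-gene sum in controls and 20.9% ± 5.31 in the others (SD, n = 3 per group). That share was 24.2%, 23.8% and 14.8% in libraries 1, 2 and 3 labelled Grp78KO, and 12.6% to 12.8% in controls. The Atp5g1 call ended without control 2 or 3 or library 1 or 2 labelled Grp78KO (edgeR's adjusted p = 0.0584 to 0.0661). A copy 99.8% identical over 411 bases, Gm10039, was counted at 0.0306 to 0.14 CPM.

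The 3 promoters are shown side by side because the genes share a product and differ in fold. They come from the same RefSeq source, window and build as above, and capitals again mark NRF1 and ETS matches.
Atp5g1, chr11:96075582-96075881, minus strand: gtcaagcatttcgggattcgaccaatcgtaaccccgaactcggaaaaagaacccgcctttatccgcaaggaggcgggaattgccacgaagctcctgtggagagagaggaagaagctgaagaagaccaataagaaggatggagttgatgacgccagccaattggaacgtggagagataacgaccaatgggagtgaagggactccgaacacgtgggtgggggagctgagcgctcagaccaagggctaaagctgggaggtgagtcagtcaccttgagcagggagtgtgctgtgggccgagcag
Atp5g2, chr15:102670998-102671297, minus strand: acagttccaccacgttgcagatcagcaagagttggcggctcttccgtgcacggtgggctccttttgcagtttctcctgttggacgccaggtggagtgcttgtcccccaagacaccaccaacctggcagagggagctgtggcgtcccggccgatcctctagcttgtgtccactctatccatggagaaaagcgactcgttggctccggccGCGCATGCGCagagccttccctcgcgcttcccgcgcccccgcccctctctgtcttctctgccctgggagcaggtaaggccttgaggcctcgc
Atp5g3, chr2:73911277-73911576, minus strand: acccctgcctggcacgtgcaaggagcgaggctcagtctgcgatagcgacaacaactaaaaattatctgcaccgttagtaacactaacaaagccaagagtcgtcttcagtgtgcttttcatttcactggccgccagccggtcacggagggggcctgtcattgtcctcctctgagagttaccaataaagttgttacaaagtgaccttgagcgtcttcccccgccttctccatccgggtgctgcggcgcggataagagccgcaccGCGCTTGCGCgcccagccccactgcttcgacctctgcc
Atp5g2 and Atp5g3 each had 1 NRF1 match, and Atp5g1 had none of the motifs searched in this window.

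The rest of complex V was near level. Atp5d, the delta subunit of the central stalk (chromosome 10, 80138632 to 80145818, plus strand), fell from 171, 154 and 132 CPM to 118, 118 and 122 CPM, with separate groups (log2 fold -0.35, SE 0.111, edgeR's adjusted p = 0.0422). Its call ended without control 1 or 2 or library 1 or 2 labelled Grp78KO (edgeR's adjusted p = 0.109 to 0.132). The catalytic head genes Atp5a1 and Atp5b were the most highly counted members. Atp5b had 718, 674 and 569 CPM in controls and 920, 876 and 699 CPM in the others (log2 fold 0.35, SE 0.153, edgeR's adjusted p = 0.112, or 0.0165 with the block), while Atp5a1 had a log2 fold of -0.01 (SE 0.128, edgeR's adjusted p = 0.947). Atp5f1, of the peripheral stalk, had separate groups, 196 to 249 and 250 to 277 CPM (log2 fold 0.25, edgeR's adjusted p = 0.139, or 0.0397 with the block). Atp5e, the epsilon subunit gene, was among the most abundant per kilobase at 331 CPM in controls and 334 CPM in the libraries labelled Grp78KO. The remaining 7 genes had log2 folds of -0.13 to 0.15 and were not called in either fit.

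Of the members that are not subunits, Atp5sl, which helps assemble the distal membrane arm of complex I despite its symbol, rose. It had 10.96, 10.6 and 10.8 CPM in controls and 19.9, 19.7 and 12.9 CPM in the libraries labelled Grp78KO, all above every control (log2 fold 0.69, SE 0.167, edgeR's adjusted p = 0.016). The controls were tight and library 3 labelled Grp78KO lay nearest to them. The call ended without control 1 or 2 or library 1 or 2 labelled Grp78KO (edgeR's adjusted p = 0.0522 to 0.0686). Atp5s had a log2 fold of 0.13 (edgeR's adjusted p = 0.437). Among 50 tested genes of a list of assembly factors, 8 were higher and 1 lower (median 0.10). This is 18% called, below the 36.8% of all genes tested, of which 18% were higher. The higher ones included the complex I factor Ndufaf6 (log2 fold 0.54, edgeR's adjusted p = 0.0104), Cox18 (0.62, edgeR's adjusted p = 0.0205), which inserts a complex IV subunit, and Coa7 (0.43, edgeR's adjusted p = 0.0208), an assembly factor of complex IV. The lower one was Uqcc3, a complex III factor (-0.35, edgeR's adjusted p = 0.0298).

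The mitochondrially encoded subunits of the same complexes did not share this level pattern. Of 13 genes, 10 were lower (76.9%, beside 18.8% of all genes tested; median -0.71), among them mt-Nd4l (log2 fold -0.81, edgeR's adjusted p = 0.0035), mt-Nd6 (-0.71, 0.00569) and mt-Nd5 (-0.76, 0.00751), all of complex I. By complex, the mitochondrially encoded median was -0.76 for complex I beside -0.03 for its nuclear genes, -0.59 beside 0.09 for complex III, -0.56 beside 0.04 for complex IV and -0.49 beside 0.01 for complex V. The summed CPM of the mitochondrial genes was 8.80, 8.40 and 8.71 times that of the nuclear genes of complex I in controls 1 to 3. In the libraries labelled Grp78KO it was 4.70, 4.72 and 6.10 times, and the groups did not overlap. The ratio fell for complex III from 6.59 ± 0.121 to 3.85 ± 0.512, for complex IV from 14.4 ± 0.407 to 9.31 ± 1.23, and for complex V from 2.20 ± 0.26 to 1.47 ± 0.122 (SD, n = 3 per group). Within controls the ratio varied little for complexes I, III and IV, and mitochondrial and nuclear genes were both high in control 1 and low in control 3. No test of the difference between the gene sets was made, and differences in RNA selection between libraries were not tested.

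**Figure D4:**
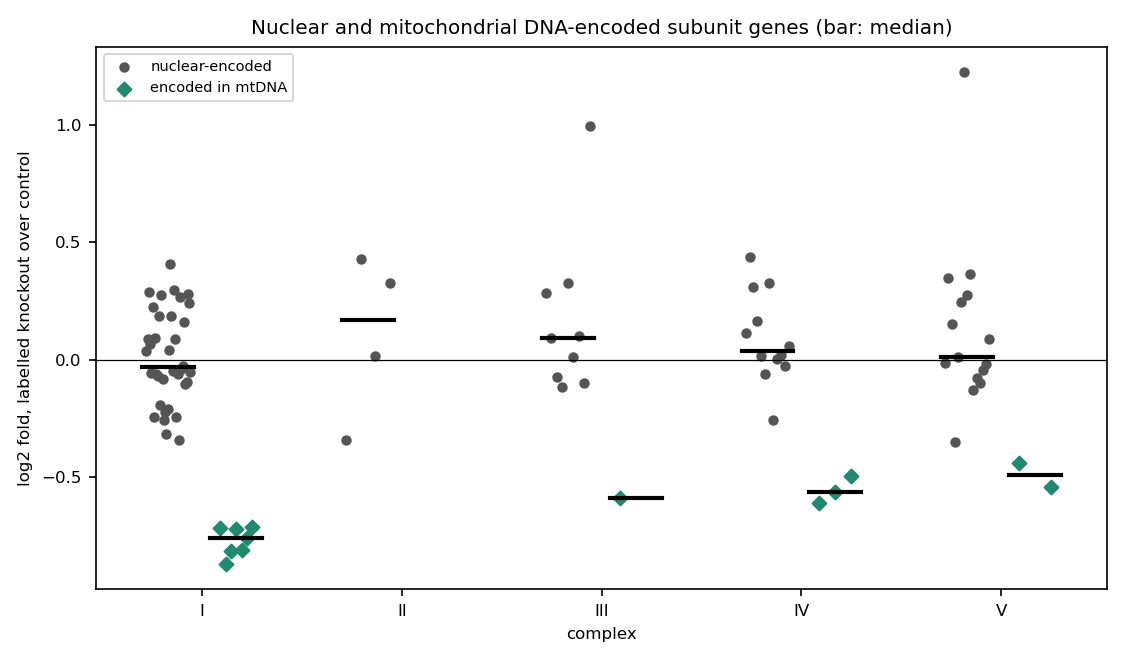
Log2 fold (libraries labelled Grp78KO over controls, vertical axis) of nuclear-encoded subunit genes (grey circles) and genes in mitochondrial DNA (green diamonds) by complex (horizontal axis); bars are medians. All 13 mitochondrial genes lie below 0, while nuclear medians run from -0.03 (complex I) to 0.17 (complex II).

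Of 16 factors known to control these genes or to act in mitochondrial DNA expression, 2 were higher and 4 lower. This was 37.5% called, beside 36.8% of all genes tested. Myc rose from 5.36 ± 1.67 to 49.7 ± 15.7 CPM (SD, n = 3; log2 fold 3.21, edgeR's adjusted p = 0.00099), and Tfb1m, a mitochondrial ribosomal RNA methyltransferase gene, rose by 0.64 (edgeR's adjusted p = 0.0259). Gabpb1 and Gabpb2, the partners of GABPA, fell by 0.36 and 0.61 on the log2 scale (edgeR's adjusted p = 0.0248 and 0.0123), Yy1 by 0.41 (edgeR's adjusted p = 0.0221) and Hif1a by 0.36 (edgeR's adjusted p = 0.0168). Nrf1, Tfam and Ppargc1a had log2 folds of -0.03, 0.06 and -0.16 (edgeR's adjusted p = 0.813, 0.707 and 0.351). Gabpa, Polrmt and Pprc1 had separate groups without a call, with log2 folds of -0.23, -0.29 and 0.48 (edgeR's adjusted p = 0.0537, 0.0862 and 0.0597). With the block, edgeR's adjusted p was 0.0266, 0.0871 and 0.0385. The RefSeq table held promoters for 68 members. The NRF1 motif was in 25% of them, against 5.19% of all 27025 genes with a promoter; the ETS motif was in 23.5% against 9.93%, and the YY1 consensus in 5.88% against 0.755%. The median log2 fold was 0.15 for 17 members with the NRF1 motif and 0.0018 for 49 tested members without it, and -0.0026 and 0.04 with and without the ETS motif. A match is a description of letters and no evidence of binding.

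Other mitochondrial and housekeeping families give the background for these values. Of 18 genes of the citrate cycle and pyruvate dehydrogenase, 2 were higher, Cs (0.42, edgeR's adjusted p = 0.0411) and Mdh2 (0.45, edgeR's adjusted p = 0.0484), and 1 lower, Ogdh (-0.36, edgeR's adjusted p = 0.0289), with a median of -0.01. These were 16.7% called, where 36.8% of all genes tested were. Of 78 mitochondrial ribosomal protein genes, 13 were higher and 2 lower (19.2% called; median 0.22). The lowest adjusted p of that list was for a fall, in Mrps9 (-0.78, edgeR's adjusted p = 0.000964). Next were rises in Mrps18b and Mrps27 (1.49 and 1.05, edgeR's adjusted p = 0.00619 and 0.00722). Of 83 cytosolic ribosomal protein genes, 23 were higher (27.7%; median 0.52), and of 37 proteasome genes 7 (18.9%; median 0.34), beside 18% of all genes; neither list had a member called lower, or lower at an unadjusted p under 0.05. These medians lay above the 0.03 of the respiratory genes, although all 3 lists shared their library pattern: cytosolic ribosomal genes lay 0.26 above the control mean in control 1 and below it in control 3 (-0.34). Across members, the log2 fold showed a Spearman correlation of 0.13 with transcript length (n = 84), while over 15692 genes it was -0.20. Members with transcripts under 600 bases had a median of -0.02, against 0.49 over all genes that short.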

How the data were processed

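RNA sequencing reads from 6 libraries of mouse cells sorted to obtain AT2 cells were made with the NEBNext Ultra RNA kit as paired reads, per the labels' protocols. The authors deposited raw counts per gene symbol. Per the submitters' processing notes the build was mm10 and edgeR 3.7 was used; for the aligner, counter and annotation the sources used here give nothing. A count of 2 was 1.63 to 1.76 times as frequent as a count of 1, so mates may have been counted separately and counting errors may exceed what the counts imply. The kit's strand setting is not stated, so the 30 members whose exons overlap another gene cannot be told apart from it there, and 24 members have a copy at least 95% identical over 200 bases.

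The main fit used edgeR 4.0.16 in R 4.3.3 (filterByExpr, TMM, robust quasi-likelihood F test, group as the only term), with Benjamini-Hochberg adjustment over 18849 genes; SE was taken from the F statistic (absolute fold over root F). The script was tested on simulated data. Alternatives were DESeq2 1.42.0, limma-voom (limma 3.58.1), a blocked fit on the replicate number, other scalings, other filters, and fits that left out libraries. Deviations from group means of same-numbered libraries correlated at 0.35, 0.20 and 0.329 across genes, so the blocked fit treats them as pairs. Nothing in the labels explains the numbers. Libraries numbered 1 and 2 also correlated crosswise (0.171 and 0.154), and number 3 correlated negatively with both (-0.35 to -0.211). Positions and principal transcript lengths come from GENCODE M21, which held all 87 members. Members, lists and tests were chosen with earlier results of these data known. Named genes were, in each complex, the 4 members with the lowest adjusted p and the 2 most abundant per kilobase. Isoform pairs and every called member with separate groups were also named. So were the 3 lowest adjusted p of each related list, except the cytosolic ribosomal and proteasome lists. Others named here were chosen after their values were seen. The gene left out of the names and of the plots of folds and of called members is not reported here.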

Additional observations from a re-analysis of the deposited data

How the results depend on the processing

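Against 6 members higher and 5 lower, library-size scaling gave 37 and 0, upper-quartile factors 12 and 2, DESeq2 11 and 5, the 5 CPM filter 12 and 4, and no filter 5 and 2. The replicate block gave 25 and 7, and leaving out both libraries numbered 3 gave 26 and 11. Leaving out 1 library gave 0 to 16 higher and 1 to 10 lower. The share of all genes called moved too, from 19.1% to 44.4% over the fits without 1 library. It was 56% without both libraries numbered 3 and 36.8% in the main fit, and the shares for the other settings are given above. RLE factors and limma-voom kept both counts within 1.5 times.

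Library-size scaling moved the median log2 fold of complexes I to V to 0.23, 0.43, 0.36, 0.30 and 0.28. With 1 library left out, the median ran from -0.09 to 0.09 for complex I, 0.06 to 0.28 for complex II, -0.07 to 0.18 for complex III, -0.0712 to 0.15 for complex IV and -0.104 to 0.172 for complex V.

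Reversals among named genes were all in members not called in the main test; of these, Ndufb11 was called lower with the block, and Ndufb11, Cox7a2l, Ndufa3 and Ndufc2 without control 3 and without both libraries numbered 3. With library-size scaling the log2 fold was 0.166 for Cox6b2, 0.0102 for Cox7a2l, 0.239 for Cox8a, 0.0223 for Ndufa3, 0.192 for Ndufa7, 0.00373 for Ndufb11, 0.0195 for Ndufc2, 0.151 for Ndufs7, 0.189 for Uqcr11 and 0.144 for Uqcrb. With upper-quartile factors it was 0.0506 for Cox8a, 0.00522 for Ndufa7 and 0.000768 for Uqcr11, and with the 5 CPM filter 0.015 for Cox8a. Without both libraries numbered 3 it was -0.0393 for Atp5e, -0.0465 for Cox6b1 and -0.0329 for Sdhc. With 1 library left out, it ran from -0.142 to 0.186 for Atp5e, -0.0178 to 0.236 for Cox4i1, -0.0957 to 0.119 for Cox6b1, -0.155 to 0.0913 for Cox8a, -0.0548 to 0.171 for Ndufa4, -0.183 to 0.0667 for Ndufa7, -0.102 to 0.13 for Sdhc and -0.202 to 0.0462 for Uqcr11. The cause of these changes was not tested.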
